A study of Mus musculus with 10 samples.

Results

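The genes described here are 10 markers and regulators of blood stem and progenitor cells, Kit, Cd34, Ly6a, Myb, Gata2, Meis1, Lmo2, Tal1, Hoxa9 and Mecom, followed in mouse acute myeloid leukaemia (AML). They were taken by symbol from a table of 38215 genes, and each symbol matched 1 protein-coding gene. Kit, Cd34 and Ly6a (Sca-1) encode surface proteins by which stem and progenitor cells are sorted. Kit is the receptor for stem cell factor, Cd34 is a sialomucin, and Ly6a is anchored in the membrane through a lipid. The other genes encode transcription factors or, for Lmo2, a bridging protein: TAL1, LMO2 and GATA2 sit in 1 DNA-bound complex of early blood cells, HOXA9 and MEIS1 bind DNA together and drive many leukaemias, MYB keeps progenitors dividing, and MECOM (EVI1) is used by long-lived stem cells.

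The leukaemia carried AML1-ETO (a fusion of the transcription factors RUNX1 and RUNX1T1) and Nras G12D, both delivered by the retrovirus MSCV-IRES-GFP into bone marrow cells depleted of mature lineages. All primary leukaemias grew in Rag2-/-γc-/- mice, a strain without lymphocytes (T, B or NK), and GFP+ spleen cells were then passed to a second set of recipients. RNA-seq was made from GFP+ splenocytes of 5 C57BL/6J recipients, which are immunocompetent (libraries 1, 3, 4, 5 and 6), and of 5 Rag2-/-γc-/- recipients (libraries 7 to 11), all with secondary AML. The study's stated question was what immunoediting, the shaping of a tumour by an immune system, does to the leukaemia's transcriptome. The labels state neither the number of primary leukaemias nor the age and sex of the mice. P-values therefore measure the spread between recipients, which may not cover differences between primary leukaemias.

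Libraries held 28157719 to 62461101 counts, and 13966 genes had enough counts to be tested. Mitochondrial genes took 1.34% of counts in C57BL/6J library 1 and between 2.91 and 4.002% in the other 9. On the first principal component of all tested genes (46.4% of the variance), Rag2-/-γc-/- libraries 7, 8 and 9 scored 49.6 to 61.6, while libraries 10 and 11 scored -4.88 and 8.73, nearer to the C57BL/6J libraries (-57.5 to -20.2). Each result below was therefore also computed without libraries 10 and 11, and without libraries 7, 8 and 9. The labels name AML and GFP+ splenocytes only. Summed markers of conventional dendritic cells (8 genes) stood at 5501 to 6675 CPM (counts scaled to library size) in C57BL/6J and 3592 to 5357 CPM in Rag2-/-γc-/- libraries, without overlap. Those of granulocytic cells stood at 4.12 to 34.4 CPM over all 10.

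Of the 10 genes, 6 had enough counts for the test and 4 passed it. Kit, Myb and Ly6a were higher in leukaemia from C57BL/6J recipients, and Cd34 was lower (quasi-likelihood test of edgeR, threshold 0.05 on p adjusted by Benjamini-Hochberg). Over all tested genes, 3.32% were called higher and 4.47% lower in C57BL/6J. The groups did not overlap for these 4 genes, as for 8.50% of all tested genes. The dendritic cell markers, summed, ran in the same direction as Kit, Myb and Ly6a. Taken singly, all 8 were tested, and 0 were called higher and 0 lower. The highest of them was Wdfy4, with a mean of 1946 CPM over all libraries. What part dendritic cells had in these differences was not tested. Lmo2 and Meis1 were read in every library and did not pass, and Gata2, Tal1, Hoxa9 and Mecom had too few reads for the test. Kit and Myb passed the filter on low counts through their C57BL/6J libraries, since 5 of 5 of those but only 2 (Kit) and 0 (Myb) of 5 Rag2-/-γc-/- libraries reached its cutoff of 0.253 CPM. The count of genes called is therefore a description and not support for a shift of the whole group.

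Kit, the stem cell factor receptor, showed the widest gap between the recipients among the 6 tested genes. It lies on chromosome 5 at 75574916 to 75656722, plus strand (GRCm38, as for all positions here). In C57BL/6J libraries 1, 3, 4, 5 and 6 it reached 3.21, 5.73, 4.44, 3.52 and 7.52 CPM, and in Rag2-/-γc-/- libraries 7 to 11 it reached 0.170, 0.189, 0.434, 0.163 and 0.304 CPM. The lowest C57BL/6J library was above every Rag2-/-γc-/- library, where Kit was read 5 to 12 times per library against 105 to 299 times. The log2 fold change (C57BL/6J minus Rag2-/-γc-/-) was 4.30 ± 0.36 (SE), a 19.7-fold difference, with an edgeR adjusted p of 7.19e-05. Of the 13966 tested genes, 18 had a higher fold change. The difference passed in all 20 alternative analyses, at 4.09 to 4.55 with adjusted p of at most 0.00521. Kit was as low in libraries 10 and 11 as in 7, 8 and 9. In bulk RNA, fewer cells that use a gene and less RNA per cell cannot be told apart, and this holds for every gene here.

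Mast cells and basophils also carry KIT, so their markers are set beside it. Their summed level moved the other way, at 0.730 to 1.90 CPM in C57BL/6J and 2.28 to 10.96 CPM in Rag2-/-γc-/- libraries. Of the 9 listed markers, 2 were tested and both, Hdc and Fcer1a, fell in C57BL/6J. Hdc, the histamine-forming enzyme, carried most of the sum, with a mean of 1.14 against 6.17 CPM. Cpa3, Mcpt8, Ms4a2, Cma1 and Prss34, which are more specific to these cells, each averaged at most 0.0396 CPM in either group. The tryptases Tpsb2 and Tpsab1 had no counts in any library. What part mast cells and basophils had in the Kit level was not tested.

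Cd34 moved the opposite way. The gene, at chromosome 1, 194938821 to 194961292 (plus strand), stood at 138, 169, 118, 98.6 and 123 CPM in C57BL/6J libraries and at 489, 374, 387, 227 and 202 CPM in Rag2-/-γc-/- libraries 7 to 11. The groups did not overlap, and within the Rag2-/-γc-/- group libraries 10 and 11 lay closest to C57BL/6J. The log2 fold change was -1.38 ± 0.24 (SE), a level 2.60-fold higher in Rag2-/-γc-/- recipients (edgeR adjusted p = 0.00592). Its size depended on which Rag2-/-γc-/- libraries were used. It was -1.69 without libraries 10 and 11, and -0.73 without 7, 8 and 9, where the call was lost (edgeR adjusted p = 0.0987).

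Endothelial cells are another source of Cd34 RNA in spleen. The summed level of 10 endothelial markers was 3.75 to 9.22 CPM in C57BL/6J and 28.0 to 37.0 CPM in Rag2-/-γc-/- libraries, and of the 3 tested markers 1, the adhesion molecule gene Pecam1, was called lower in C57BL/6J. Pecam1, which leukocytes and platelets also make, averaged 3.08 ± 2.52 against 28.8 ± 3.4 CPM (SD, n = 5 each) and accounts for most of that sum. Esam, also tested, averaged 1.38 ± 0.49 against 3.37 ± 1.91 CPM, with overlapping groups and no call (log2 fold change -1.29, edgeR adjusted p = 0.0729). Cdh5, which defines endothelium, averaged 0.390 ± 0.184 and 0.545 ± 0.195 CPM with overlapping groups, and Tie1 had no counts. What part these cells had in the Cd34 level was not tested.

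**Figure D1:**
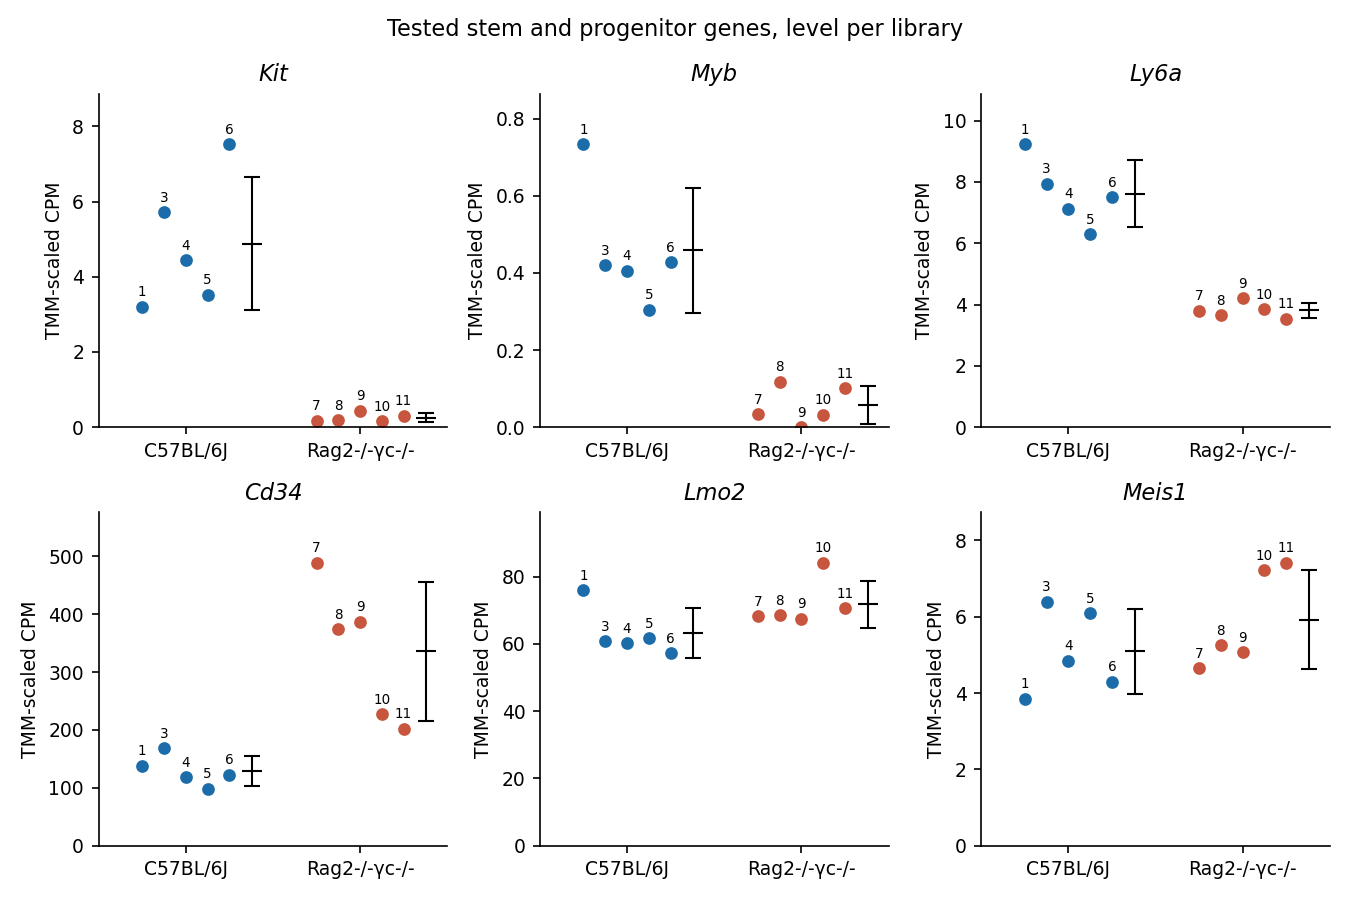
Level of the 6 tested genes in each library, in TMM-scaled CPM on linear axes that start at 0. Points are libraries with their numbers, blue for C57BL/6J and red for Rag2-/-γc-/- recipients, and bars beside them are the mean ± SD (n = 5). Kit, Myb and Ly6a are higher and Cd34 lower in every C57BL/6J library than in any Rag2-/-γc-/- library, while the groups overlap for Lmo2 and Meis1.

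Kit and Cd34 often mark the same progenitors, and here they separated the recipients in opposite directions. Library 6, with the most Kit, had 16.3 Cd34 reads for each Kit read, and the other C57BL/6J libraries had 26.6 to 43.2. In Rag2-/-γc-/- libraries 7 to 11 the ratio was 2883, 1975, 891, 1391 and 665. Within neither group did the libraries with more Kit hold consistently less Cd34: C57BL/6J library 3 was high for both, and library 9 had the most Kit of its group and the second-highest Cd34.

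**Figure D2:**
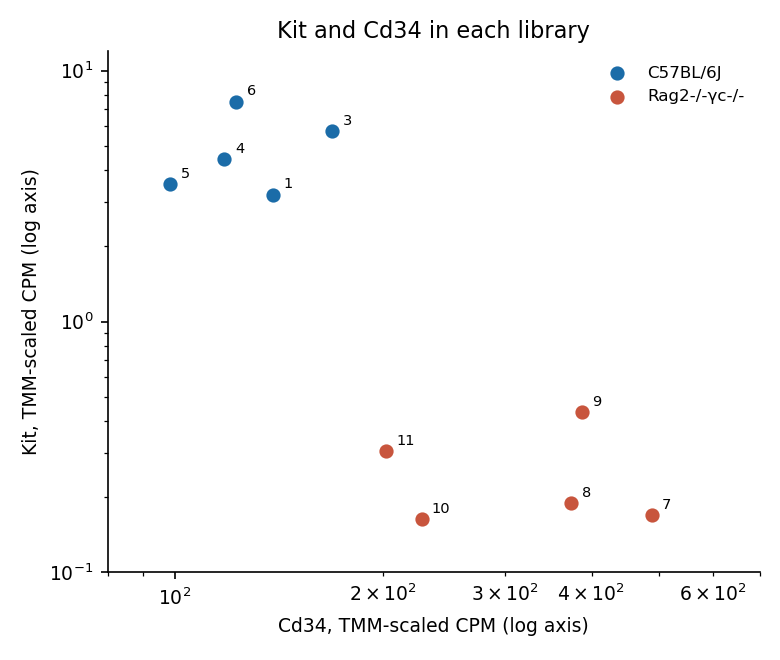
Kit against Cd34 in TMM-scaled CPM, both on log axes, with each point a library marked by its number. The 5 C57BL/6J libraries lie at 3.21 to 7.52 CPM of Kit and 98.6 to 169 CPM of Cd34, and the 5 Rag2-/-γc-/- libraries at 0.163 to 0.434 and 202 to 489 CPM.

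Ly6a encodes Sca-1, which marks mouse stem cells and is also induced by interferons in many cell types. It lies on chromosome 15 at 74994878 to 74997634, minus strand. The C57BL/6J libraries held 9.22, 7.95, 7.13, 6.29 and 7.50 CPM, and the Rag2-/-γc-/- libraries 3.80, 3.64, 4.20, 3.85 and 3.54 CPM. The groups did not overlap, and the Rag2-/-γc-/- libraries lay close together, with libraries 10 and 11 beside the rest. Ly6a rose by 1.00 ± 0.13 (SE) on the log2 scale in C57BL/6J (edgeR adjusted p = 0.0012), and passed in all 20 alternatives at 0.90 to 1.06.

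Interferon gamma response genes were followed beside Ly6a. Of 16 such genes, all tested, 8 were higher and 1 was lower in C57BL/6J, against 3.32% and 4.47% of all tested genes. The 16 had a median log2 fold change of 0.65, against 0.0037 for all tested genes. The GTPase gene Gbp2 had the smallest adjusted p of them, at 5.70 ± 1.51 against 0.345 ± 0.167 CPM (log2 fold change 4.05, edgeR adjusted p = 7.37e-05). The count of higher genes was 5 without Rag2-/-γc-/- library 8 or without library 9, and 4 without 7, 8 and 9. The 1 lower gene was Cxcl10, which averaged 2.80 against 6.19 CPM without overlap between the groups (log2 fold change -1.15, edgeR adjusted p = 0.0379). Its call was lost without any 1 of C57BL/6J libraries 3, 5 and 6 or Rag2-/-γc-/- libraries 7, 8 and 9. What part interferons had in the Ly6a level was not tested.

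Myb, a transcription factor of dividing progenitors, was higher in the same libraries as Kit, though on few reads. It lies on chromosome 10 at 21124930 to 21160984, minus strand. In the C57BL/6J libraries it was read 24, 17, 16, 14 and 17 times (0.733, 0.420, 0.406, 0.305 and 0.428 CPM), and in the Rag2-/-γc-/- libraries 2, 5, 0, 1 and 4 times (0.0339, 0.118, 0, 0.0327 and 0.101 CPM). The groups did not overlap, although even the C57BL/6J values rest on at most 24 reads. The log2 fold change was 2.86 ± 0.52 (SE; edgeR adjusted p = 0.0071). It was 3.01 without Rag2-/-γc-/- libraries 10 and 11 and 2.66 without 7, 8 and 9, where the call was lost (edgeR adjusted p = 0.0849).

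C57BL/6J library 1 held the most Myb and the most Ly6a of its group, and it also held the most lymphocyte marker RNA. Summed markers of T and NK cells (11 genes) reached 35.5 CPM there and 2.70 to 12.6 CPM in the other C57BL/6J libraries, against 5.24 to 8.48 CPM in Rag2-/-γc-/- libraries. Summed B and plasma cell markers (7 genes) reached 120 CPM there, 6.09 to 21.4 CPM in the other C57BL/6J libraries and 2.51 to 3.72 CPM in the Rag2-/-γc-/- group. In Rag2-/-γc-/- libraries the T cell genes Cd3e and Cd3d averaged 0.0147 and 0.0300 CPM, and Nkg7 had no counts. Cd5, Klrb1c and Lck of the same list averaged 2.83, 2.07 and 1.36 CPM there and carried most of that sum. Their C57BL/6J means were 1.43, 0.809 and 3.14 CPM, and edgeR did not call them. Of each list 5 markers were tested and 2 were called higher in C57BL/6J. Without library 1, Myb differed by 2.64 (edgeR adjusted p = 0.0131), Ly6a by 0.92 (adjusted p = 0.0020) and Kit, which was lowest in that library, by 4.42 on the log2 scale.

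**Figure D3:**
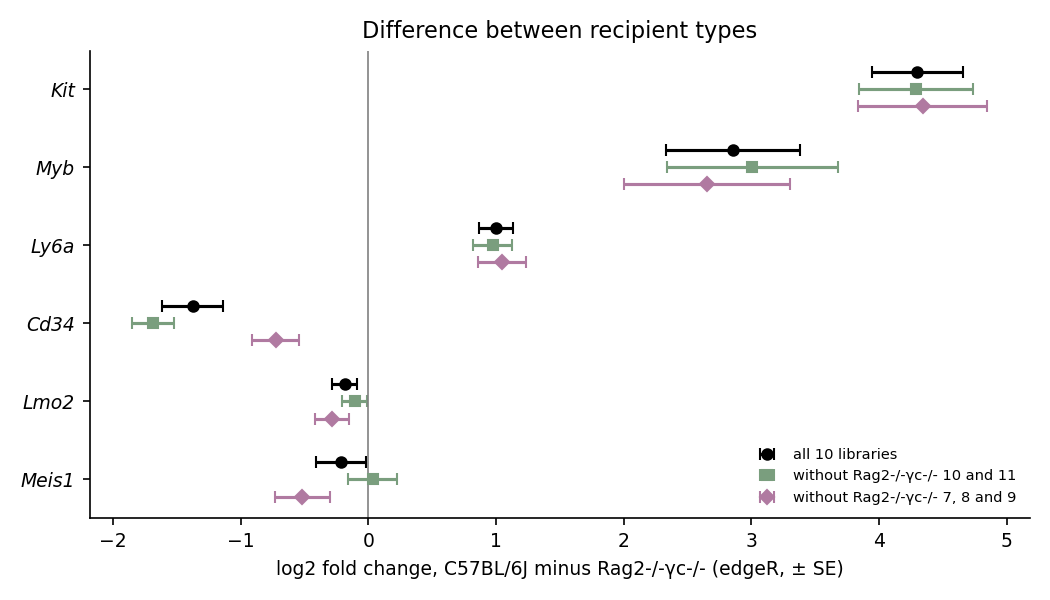
Log2 fold change (C57BL/6J minus Rag2-/-γc-/-) ± SE of the 6 tested genes in edgeR, with all 10 libraries (circles), without Rag2-/-γc-/- libraries 10 and 11 (squares) and without 7, 8 and 9 (diamonds). Kit stays above 4 and Ly6a near 1 in each of them, while Cd34 runs from -1.69 to -0.73 and Meis1 lies on both sides of 0.

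The letters before the start sites are shown for Kit, Cd34 and Myb, the called genes with the largest fold changes in either direction. Ly6a, the other called gene, has no promoter entry. The runs are RefSeq promoter sequence of build GRCm38.p6, 5′ to 3′ on the gene's strand, ending before the first annotated exon, with each CG dinucleotide in capitals. They cover chr5:75574737-75574915 (Kit, plus strand), chr1:194938571-194938818 (Cd34, plus strand) and chr10:21160985-21161234 (Myb, minus strand).
Kit: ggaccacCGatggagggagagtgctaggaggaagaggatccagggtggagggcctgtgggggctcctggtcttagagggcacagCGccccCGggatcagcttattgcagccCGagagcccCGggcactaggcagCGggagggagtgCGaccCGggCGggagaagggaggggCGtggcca
Cd34: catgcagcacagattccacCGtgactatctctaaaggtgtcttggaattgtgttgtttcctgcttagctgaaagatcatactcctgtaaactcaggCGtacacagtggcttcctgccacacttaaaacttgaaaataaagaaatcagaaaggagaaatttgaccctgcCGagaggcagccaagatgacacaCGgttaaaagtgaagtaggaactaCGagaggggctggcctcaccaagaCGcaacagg
Myb: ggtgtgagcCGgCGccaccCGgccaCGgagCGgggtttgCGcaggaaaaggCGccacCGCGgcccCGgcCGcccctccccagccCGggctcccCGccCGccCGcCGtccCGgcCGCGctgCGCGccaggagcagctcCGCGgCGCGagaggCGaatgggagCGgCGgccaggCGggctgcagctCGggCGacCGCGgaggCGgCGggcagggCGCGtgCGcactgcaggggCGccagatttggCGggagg

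The runs of Kit and Myb are richer in CG than that of Cd34, and Ly6a, the third gene higher in C57BL/6J, has no entry to set beside them. The Kit run has 10 CG in 179 bases, the Cd34 run 6 in 248 and the Myb run 40 in 250, with 69.3, 46.4 and 81.2% of bases G or C. Over 32851 promoters in the same table the median was 6 CG in the 250 bases before the start, and 98.7% had fewer than Myb and 76.5% fewer than Kit, whose full 250 bases held 17. Of the 10 genes, 8 matched 12 promoter windows, and Ly6a and Lmo2 have no entry. Each window of 300 bases (250 before to 50 after the start) was searched on both strands for RUNX (letters TGTGGT, in 16.8% of all promoters), GATA factors (letters AGATAA, 11.2%), E-box (CAGATG, 17.2%), MEIS (TGACAG, 19.2%), MYB (AACTG, 44.8%), ETS (CCGGAA, 14.9%), interferon-stimulated (GAAANNGAA, 8.56%) and gamma-activated (TTCNNNGAA, 8.30%) letters. The Kit and Cd34 windows held none of the 8. The Myb window held 1 E-box on the opposite strand, at bases 280 to 285. Among the other genes, the Meis1 window held 1 RUNX and 1 ETS match, and the first Tal1 window held 1 GATA, 1 E-box and 2 MYB matches. The Hoxa9 window held 1 interferon-stimulated match, the first Mecom window 1 such match and 1 E-box, and the second Mecom window 1 MEIS and 1 MYB match. None of these matches overlapped another. A match describes letters, not a bound site.

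Lmo2 varied little, with a coefficient of variation of 11.6% in C57BL/6J and 9.69% in Rag2-/-γc-/- libraries. Its protein joins TAL1 to GATA factors, and the gene lies on chromosome 2 at 103957986 to 103981878, plus strand. The C57BL/6J libraries held 76.0, 60.8, 60.3, 61.7 and 57.3 CPM and the Rag2-/-γc-/- libraries 68.3, 68.6, 67.5, 84.1 and 70.7 CPM. C57BL/6J library 1 and Rag2-/-γc-/- library 10 stood above the rest of their groups, and library 1 made the groups overlap. The log2 fold change of -0.18 ± 0.10 (SE) did not pass (edgeR adjusted p = 0.258). Of 20 alternatives, limma-voom with sample quality weights was the only one in which it passed (-0.18, adjusted p = 0.0310).

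Meis1, the DNA-binding partner of HOXA9 and PBX proteins, was read in every library at a few CPM. It lies on chromosome 11 at 18880430 to 19018958, minus strand. The values were 3.85, 6.39, 4.85, 6.09 and 4.30 CPM in C57BL/6J and 4.65, 5.25, 5.07, 7.22 and 7.41 CPM in Rag2-/-γc-/- libraries. The groups overlapped, with Rag2-/-γc-/- libraries 10 and 11 the highest of all. The log2 fold change was -0.21 ± 0.20 (SE; edgeR adjusted p = 0.497), and it changed sign without libraries 10 and 11 (0.04, adjusted p = 0.899).

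Gata2 and Tal1, which encode DNA-binding partners of LMO2, were read only a few times per library. Gata2 (chromosome 6, 88193891 to 88207030), a zinc finger factor of stem and mast cells, was read 3, 3, 0, 3 and 1 times in C57BL/6J and 13, 3, 5, 1 and 4 times in Rag2-/-γc-/- libraries. Tal1 (chromosome 4, 115056426 to 115071755), the basic helix-loop-helix member, was read 4, 7, 1, 5 and 6 times and 6, 12, 11, 2 and 11 times. Both sets of counts overlapped between groups, and 13 of the 26 Gata2 reads of the Rag2-/-γc-/- group came from library 7, the deepest. Scaled to library size, summed Gata2 reads (10 against 26) were 2.59 times as high in Rag2-/-γc-/- (exact 95% binomial interval 1.21 to 6.02) and summed Tal1 reads (23 against 42) 1.82 times (1.07 to 3.17). These intervals cover counting error only. Without the filter, edgeR gave log2 fold changes of -1.22 ± 0.75 for Gata2 and -0.91 ± 0.59 for Tal1, with adjusted p of 0.356 and 0.387. Erythroid cells and mast cells also use these factors. The mast cell and basophil sum, given above and mostly Hdc, was higher in every Rag2-/-γc-/- library, and the sum of 10 erythroid markers was 74.8 to 243 CPM there against 14.97 to 147 CPM, with 1 of 7 tested markers lower in C57BL/6J. Their part in these counts was not tested.

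Hoxa9 (chromosome 6, 52223100 to 52231089), a homeobox gene of progenitors and of many AMLs, was read 12 times in C57BL/6J library 3, once each in Rag2-/-γc-/- libraries 7 and 11, and 0 times in the other 7. All reads of the C57BL/6J group thus came from 1 library, so the ratio of 12 to 2 reads (6.02, exact 95% binomial interval 1.34 to 55.4, counting error only) describes that library. Without the filter, edgeR gave 2.30 ± 1.63 (adjusted p = 0.372). Mecom (chromosome 3, 29951299 to 30548008) had 0 reads in all 10 libraries. A count of 0 allows up to 3 reads, or 0.0509 to 0.109 CPM in a single library and 0.00755 CPM over all of them.

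**Figure D4:**
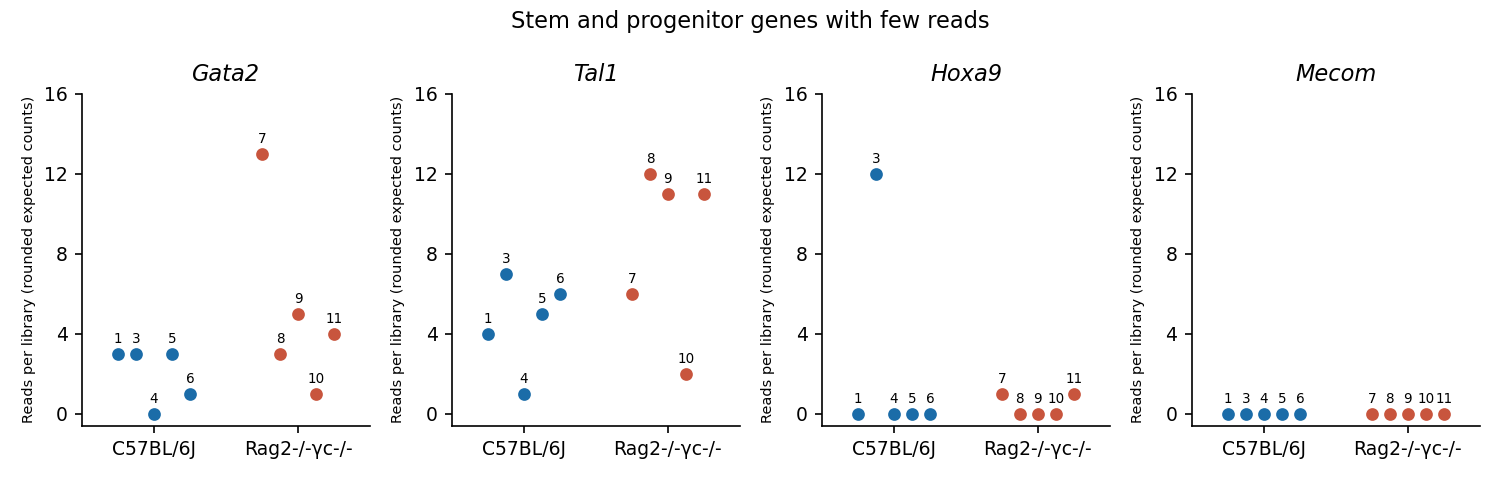
Reads per library (rounded expected counts, linear axis) of the 4 genes with too few reads for the test. Points are libraries with their numbers, blue for C57BL/6J and red for Rag2-/-γc-/-. Gata2 and Tal1 reach at most 13 and 12 reads, Hoxa9 is read 12 times in C57BL/6J library 3 and at most once elsewhere, and Mecom is not read.

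Levels can be ordered between genes only per length, so reads were divided by exon length and scaled to the same total in each library (TPM scale; mean ± SD, n = 5). In C57BL/6J the order was Lmo2 (79.8 ± 8.7 TPM), Cd34 (48.3 ± 8.8), Ly6a (17.2 ± 1.9), Kit (1.49 ± 0.50) and Meis1 (1.33 ± 0.33). In each of the 5 libraries Lmo2, Cd34 and Ly6a followed in that order, while Kit and Meis1 did not differ beyond their spread. The other 5 genes were at or below 0.139 TPM. In Rag2-/-γc-/- libraries Cd34 came first (122 ± 39 TPM) but was above Lmo2 (89.2 ± 10.7) in only 3 of 5, so these did not separate. Ly6a (8.48 ± 0.49) and Meis1 (1.52 ± 0.39) followed in every library, and Kit (0.0760 ± 0.0351) lay among the genes near 0, with its range overlapping those of Tal1 and Gata2.

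The genes whose log2 CPM ran most like each of the 4 called genes were looked up among 9206 genes averaging at least 5 CPM. The correlations describe 10 libraries that fall into the same 2 groups, so any gene that separates the groups scores high. Closest to Kit were Itgae, the integrin chain CD103 (r = 0.99), Gnb4, a G protein subunit (0.99), and Mfge8, a secreted bridge to dying cells (0.98). Closest to Cd34 were the lipid kinase gene Pip4k2b, Fam45a and the pyrophosphate transporter gene Ank (0.98, 0.98 and 0.97). Prelid2, Dnajc2 and Kremen2 were closest to Ly6a (0.99, 0.97 and 0.97), and the lectin gene Mgl2, Acad11 and Rwdd4a to Myb (0.95 each). Among the members, Kit and Ly6a ran closest together (r = 0.94), and Kit and Cd34 ran opposite (r = -0.83). Of the 8 nearest tested genes on either side of the 4 called genes, 1 passed the test. It was Ahi1, 44.5 kb from Myb, at 4.91 ± 0.74 CPM in C57BL/6J against 2.67 ± 0.53 CPM (log2 fold change 0.88 ± 0.18 SE, edgeR adjusted p = 0.0129), a call lost without Rag2-/-γc-/- libraries 7, 8 and 9 (0.61, adjusted p = 0.216).

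Many other stem and progenitor genes were near 0, like Gata2 and Mecom. Of 40 listed, 20 averaged under 1 CPM and 23 were tested. Of these, 2 were higher and 2 lower in C57BL/6J, against 3.32% and 4.47% of all tested genes. The median log2 fold change of the list was -0.08. Mn1, a transcriptional coregulator that can start AML, was near 0 in C57BL/6J (0.0519 ± 0.0348 CPM) and averaged 3.19 ± 1.75 CPM in Rag2-/-γc-/- (log2 fold change -5.89 ± 0.61 SE, edgeR adjusted p = 0.000249), and passed in all 20 alternatives. It passed the filter on low counts only through its Rag2-/-γc-/- libraries. Its highest C57BL/6J value was 0.0916 CPM, under the cutoff of 0.253 CPM, so its call is a description. Erg, an ETS factor of stem cells, was also lower in C57BL/6J (-2.65 ± 0.48, adjusted p = 0.0077). The receptor gene Flt3, which dendritic cells also use, was higher in C57BL/6J like their summed markers, at 21.4 ± 16.6 against 4.75 ± 1.37 CPM (2.18, adjusted p = 0.0109). It was 1.58 without C57BL/6J library 6, which held the most, and lost its call without Rag2-/-γc-/- libraries 7, 8 and 9 (adjusted p = 0.249). Cd27, a receptor shared with lymphocytes (2.39, adjusted p = 0.0374), lost its call in 10 of 19 alternatives, among them those that left out 1 of C57BL/6J libraries 1, 3 and 4 or 1 of Rag2-/-γc-/- libraries 7, 8, 9 and 11. The counts for the list moved with the analysis. They were 2 higher and 3 lower by DESeq2, 1 and 2 by limma-voom, and 5 and 8 with quality weights. At 1 CPM in 5 libraries they were 1 and 1. Without Rag2-/-γc-/- libraries 10 and 11 they were 7 and 7, and without 7, 8 and 9 they were 0 and 2. Without library 10 alone they were 4 and 4. Calls over all genes moved as well. They went from 464 higher and 624 lower to 3306 and 3217 with quality weights, and to 2786 and 2518 without libraries 10 and 11. The lists that follow are to be read beside the same totals.

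Many partners of the LMO2 and TAL1 complex were read well, unlike Tal1 and Gata2 themselves. Of 25, 22 were tested. On average 12 were over 50 CPM and 5 under 1 CPM, among them Gata1 and Gata3. By edgeR 0 were higher and 4 lower in C57BL/6J, against 3.32% and 4.47% of all tested genes. At an unadjusted p under 0.05 the counts were 1 and 7. DESeq2 and limma-voom called 0 higher, or 3 with quality weights. The 4 lower by edgeR were Erg, the E protein genes Tcf4 (13.4 ± 5.3 against 37.6 ± 8.7 CPM; -1.49, adjusted p = 0.0096) and Tcf12 (-0.46, adjusted p = 0.0107), and the GATA cofactor gene Zfpm1 (-0.97, adjusted p = 0.0369). Tcf4, Tcf12 and Zfpm1 lost their calls without Rag2-/-γc-/- libraries 7, 8 and 9, and Zfpm1 in 7 of 20 alternatives, most of which left out 1 of C57BL/6J libraries 4, 5 and 6 or 1 of Rag2-/-γc-/- libraries 7, 8 and 9. There were 2 higher genes without Rag2-/-γc-/- library 10 and 1 without library 11.

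Around KIT itself, all 20 genes of its ligand and signalling were tested. By edgeR 0 were higher and 1 lower, against 3.32% and 4.47% of all tested genes. The counts were 1 and 7 at an unadjusted p under 0.05, 1 and 6 by DESeq2, 0 and 1 by limma-voom, and 1 and 8 with quality weights. The 1 called lower by edgeR was the adaptor gene Dok2 (108 ± 26 against 172 ± 35 CPM; -0.67, adjusted p = 0.0461). Its call was lost in 9 of 20 alternatives, and the list had 0 lower genes without any 1 of C57BL/6J libraries 3 to 6 or Rag2-/-γc-/- libraries 8 and 9, but 6 without library 10 and 3 without library 11. Without C57BL/6J library 1 it had 1 higher gene. Among 4 relatives and partners of CD34, 3 were tested and 1 was lower, the sialomucin gene Podxl2 (0.115 ± 0.057 against 0.669 ± 0.330 CPM; -2.51, adjusted p = 0.0087, lost without libraries 7, 8 and 9). Like Mn1, Podxl2 passed the filter only through its Rag2-/-γc-/- libraries, as its highest C57BL/6J value was 0.173 CPM.

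In the other families edgeR called 0 genes in either direction. They were HOXA, MEIS and PBX genes (8 of 19 tested; 3 lower at an unadjusted p under 0.05, 2 lower by DESeq2, 4 lower by limma-voom with quality weights), MYB relatives and cofactors (9 of 9 tested; 2 lower unadjusted, 1 lower by DESeq2, 4 higher and 2 lower with quality weights), LY6 genes (2 of 14 tested; 1 higher unadjusted, 0 by the other tools) and MECOM partners (4 of 5 tested; 1 lower unadjusted, 0 by DESeq2, 2 higher and 1 lower with quality weights). Plain limma-voom called 0 in each of these families. Leaving out single libraries moved some of these counts to 1. This held for HOXA genes (1 lower) when C57BL/6J library 1 was left out, or Rag2-/-γc-/- library 10, for MYB relatives without Rag2-/-γc-/- library 10 (1 higher, 1 lower), and for LY6 genes without C57BL/6J library 5 or any 1 of Rag2-/-γc-/- libraries 8 to 11 (1 higher). The genes with the smallest p in these families were Pbx4 (-1.42, adjusted p = 0.0598), the MYB coactivator gene Crebbp (-0.59, adjusted p = 0.0780), Ly6e (0.25, adjusted p = 0.172) and Ctbp1 (-0.22, adjusted p = 0.129). Ly6e, the neighbour of Ly6a, averaged 1634 ± 239 against 1373 ± 109 CPM.

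**Figure D5:**
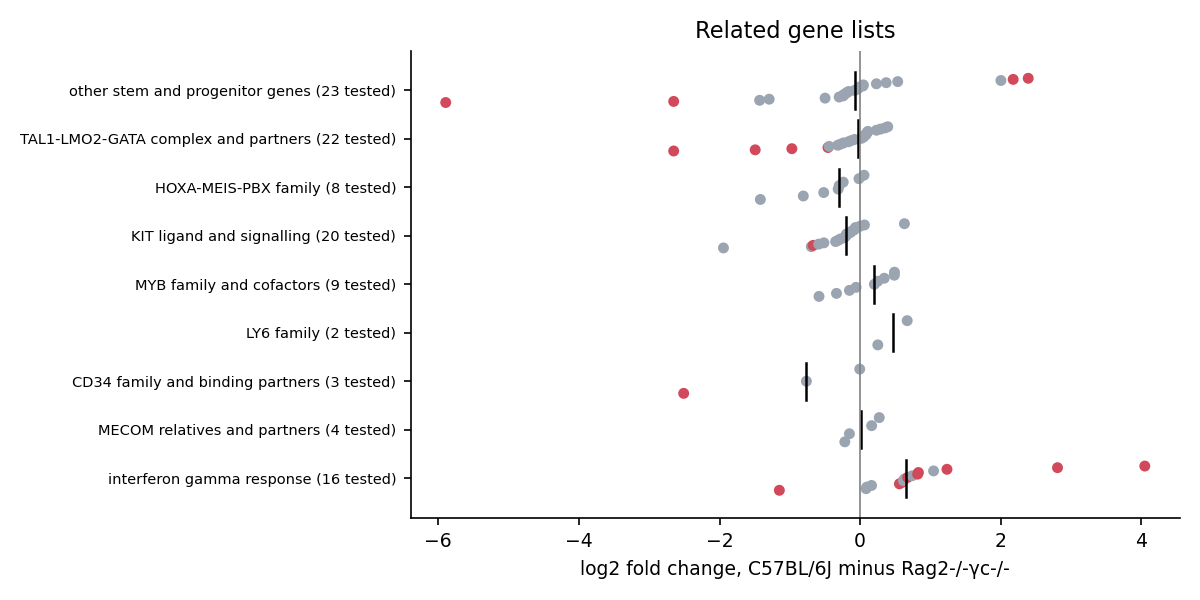
Log2 fold change (C57BL/6J minus Rag2-/-γc-/-) of each tested gene in 9 lists of related genes. Points are genes, red where edgeR called them and grey where it did not, and the bar is the list's median. Medians run from -0.76 (3 CD34 relatives and partners) to 0.65 (16 interferon gamma response genes), and Mn1 lies furthest from 0 at -5.89.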

How the data were processed

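Poly(A)-selected RNA of GFP+ splenocytes was sequenced as single reads, per the labels' protocols. The authors deposited 1 table of expected counts per gene, which are estimates that divide reads shared between genes. Cutadapt 1.11, STAR 2.5.2a, RSEM 1.2.30, edgeR and build GRCm38 are named in the submitters' processing notes; which did what, and the annotation used, is not given in the sources used here. Libraries were grouped by title.

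Expected counts were rounded to whole numbers. They were not whole for Cd34 in 10 libraries, Ly6a in 8, Myb in 1 and Meis1 in 1, and rounding moved a value by at most 1.01%. Nothing states that the libraries kept strand, so overlapping and antisense reads cannot be told apart. The test was edgeR 4.0.16 (R 4.3.3) quasi-likelihood with TMM scaling, filterByExpr (minimum count 10, total 15) and a group term, adjusted by Benjamini-Hochberg over all tested genes at a threshold of 0.05. It was checked on simulated data. CPM are TMM-scaled. Exon lengths came from GENCODE M21, for 95.3% of listed genes. Alternatives were RLE and upper quartile scaling, DESeq2 1.42.0, limma-voom (limma 3.58.1) with and without sample quality weights, no filter, 1 CPM in 5 libraries, robust dispersion, leaving out each library, and leaving out the Rag2-/-γc-/- pair 10 and 11 or the other 3.

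The members and lists were chosen with earlier results of these data known. Named beside the members were up to 4 called genes per list with the smallest adjusted p or, where none was called, the 1 with the smallest p; the 3 genes most like each called member; and markers with the highest or lowest levels. Ahi1 and the markers Pecam1, Cdh5, Hdc, Fcer1a, Tpsab1, Cpa3, Mcpt8, Ms4a2, Cma1, Prss34, Cd3e, Cd3d and Nkg7 were chosen, where they fall outside that rule, after their values were seen. The same holds for Cxcl10, Esam, Cd5, Klrb1c, Gata1, Gata3 and Kitl. A gene that this rule names is not reported here. A planned comparison of protein sequences was not analysed here.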

Additional observations from a re-analysis of the deposited data

Results flagged for a closer look

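A library standing far from the other 4 of its group was found in 4 of 18 groups examined (each gene with counts in each recipient type). For normally distributed values the rule marks about 1 in 20 groups. Myb and Hoxa9 rest on few reads, where that rate need not hold, so no excess over it is claimed. Myb reached 0.733 CPM in C57BL/6J library 1, against 0.305 to 0.428 CPM in the others. Lmo2 reached 76.0 CPM in the same library, against 57.3 to 61.7 CPM. Lmo2 also reached 84.1 CPM in Rag2-/-γc-/- library 10, against 67.5 to 70.7 CPM in the rest of that group. Hoxa9 reached 0.296 CPM in C57BL/6J library 3 and had no reads in the other 4.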

How the results depend on the processing

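Kit and Ly6a kept their direction and call in all 20 alternatives, and 3 members were called higher in 18 of them. There were 2 without Rag2-/-γc-/- libraries 7, 8 and 9, and 2 at 1 CPM in 5 libraries, where Myb was not tested. Members called lower numbered 0 without libraries 7, 8 and 9, and 2 with limma-voom and sample quality weights. The log2 fold change of Meis1 turned to 0.0352 with those weights and to 0.0359 without libraries 10 and 11. Over all genes, 464 higher and 624 lower calls became 803 and 1155 with DESeq2, 3306 and 3217 with quality weights, 2786 and 2518 without libraries 10 and 11, and 148 and 127 without 7, 8 and 9. Leaving out single libraries gave 275 to 1076 higher and 304 to 1323 lower. The cause of these changes was not tested, and where libraries were left out the groups were also smaller. Of 360 recounts of the related lists, 29 were lower and 46 higher than in the main analysis by more than a factor of 1.5, or by a change to or from 0. The other 285 include smaller changes. No paired analysis was possible because the groups share no replicate numbers. Depth limits Myb, Gata2, Tal1, Hoxa9 and Mecom, which had at most 24 reads in any library.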
